A study of Mus musculus with 2 samples.

Results

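Extracellular proteases and their inhibitors were read in siKlf4 mouse embryonic stem (ES) cells against a common reference RNA. Members were the gene probes whose accession mapped to a mouse RefSeq symbol of the matrix metalloproteases (Mmp), tissue inhibitors of metalloproteases (Timp), ADAM and ADAMTS proteases, plasminogen activators and their receptor, serpins other than Serpinh1, or cystatins. The rule used names only and gave 89 genes on 91 probes, among 10149 genes on the array with 1 symbol. The study compared EB5 ES cells, a mouse line grown without feeders on gelatin, that had received Klf4 siRNA together with the plasmid pCAGEGFP-IP, with Universal Mouse Reference RNA. Cells were kept for 24 h after transfection and for 24 h more under puromycin, and their RNA was labelled with Cy3 on 2 two-colour arrays, 1 per sample (siKlf4/EB5 #1 and #2, n = 2). The reference, labelled with Cy5 on both, pooled equal parts of RNA from 11 cell lines, among them embryo fibroblasts, a hepatocyte line, an alveolar macrophage line, lymphocytes, myoblasts and skin cells. No ES cells without Klf4 siRNA were analysed here, so each ratio below compares siKlf4 ES cells with the pool and says nothing of the siRNA.

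These families govern how cells cut and keep their surroundings. Matrix metalloproteases and ADAMTS enzymes are zinc proteases that cleave collagens, proteoglycans and other matrix proteins, and TIMPs block their active site. ADAMs sit in the membrane and release the outer parts of growth factors, Notch receptors and adhesion proteins. Plasminogen activators convert plasminogen to plasmin at the cell surface, and most serpins trap serine proteases by offering a bait loop that, once cut, locks the enzyme. Cystatins inhibit cysteine proteases such as the lysosomal cathepsins. Fibroblasts and macrophages are classic sources of many of these proteins.

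Values are log2 ratios of ES cells over reference after background correction and normalisation within each array, and signals are intensity units above the local background. A gene was called when limma's adjusted p was under 0.05, both arrays had the same sign and the mean ratio was at least 2-fold. A probe was counted as above the negative controls in a channel when it exceeded 95% of these 162 spots. That limit was 155 units on array 1 and 178 on array 2 for ES cells, and 40.9 and 58.4 for the pool. The labels do not say whether the samples were separate cultures, so p-values measure only the spread between these arrays, which may be technical, and both arrays carry the same dye orientation. Klf4, the siRNA target, stood at 0.43 and 0.59, a mean 1.42-fold above the pool (log2 0.51 ± 0.11, SD, n = 2; limma adjusted p = 0.000463). Of 7 measured ES cell markers 6 were called higher, and the seventh, Esrrb, was not above the negative controls. Fibroblast markers were called lower in 4 of 6 cases, with summed signals of 5203 and 6307 in ES cells against 67290 and 64873 in the reference. Vim made up most of these sums, at 3904 and 4864 against 59637 and 57306, and the uncalled Thy1 and Lum were 1.48-fold and 1.25-fold below the pool. Macrophage and leukocyte markers were called lower in 5 of 6 cases, with sums of 5098 and 6274 against 66376 and 61923, mostly Spp1 at 3847 and 4943 against 60305 and 56066. Trophectoderm markers were called lower in 3 of 5 cases (Krt18 17.1-fold, Gata3 2.58-fold and Krt7 2.5-fold) and higher in 0. The uncalled Cdx2 and Hand1 had mean log2 ratios of -0.40 and 0.11. Endoderm markers, among them the member Plat, were called lower in 2 and higher in 1 of 7. Of 3 hepatocyte markers 0 were called. In the ES cells 2 of these, Ttr and Apoa1, were not above the negative controls on either array. Of the fibroblast, macrophage and leukocyte markers Ptprc alone was not above the negative controls in the ES cells on either array. The part of these markers in the results below was not tested. In RNA of whole cultures, fewer cells of a type and less RNA per cell cannot be told apart.

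Lower signals in the ES cells made up nearly all the calls. Of the 89 members, 13 (14.6%) were called lower and 1 (1.12%) higher, and 75 were not called. Over all 10137 genes tested by the same rule, 7.47% were called lower and 6.73% higher, and over all 21028 probes 5.19% and 5.08%. The counts by family below are to be read beside these shares of all genes. Without the fold limit 42 of the 89 members passed on the lower side and 13 on the higher. Of all 10137 genes 3466 (34.2%) and 3528 (34.8%) did. That p alone says little, since 115 of the 162 negative control spots also passed it. A ratio beyond that of every negative control spot (largest absolute log2 ratio 0.518) was reached by 22 of the 89 members and 3051 of the 10137 genes. The median member stood at a log2 ratio of -0.10 (-0.09 with members that have only a bound set to it), against -0.01 over all genes. The members called lower included Mmp14, Mmp3, Mmp23, Mmp2, Adam9, Serpinf1, Serpinb1a, Serpinb6c, Serpinb6b, Cst3, Cstb and Cst7, and the one called higher was Serpine2. Of the 46 proteases 5 were called lower and of the 42 genes of the inhibitor families 8 were. Most members were measurable: 68 were above the negative controls in both channels on both arrays, 6 in no channel on either array, and 12 were not above them in the ES cells on either array. Among the 68, 10 were called lower and 1 higher, beside 7.24% lower and 7.63% higher of 8721 genes with the same property. Without background correction 6 of the 14 called members kept their call, among them Mmp14, Cst3, Cstb, Serpinf1 and Serpinb6c.

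**Figure D1:**
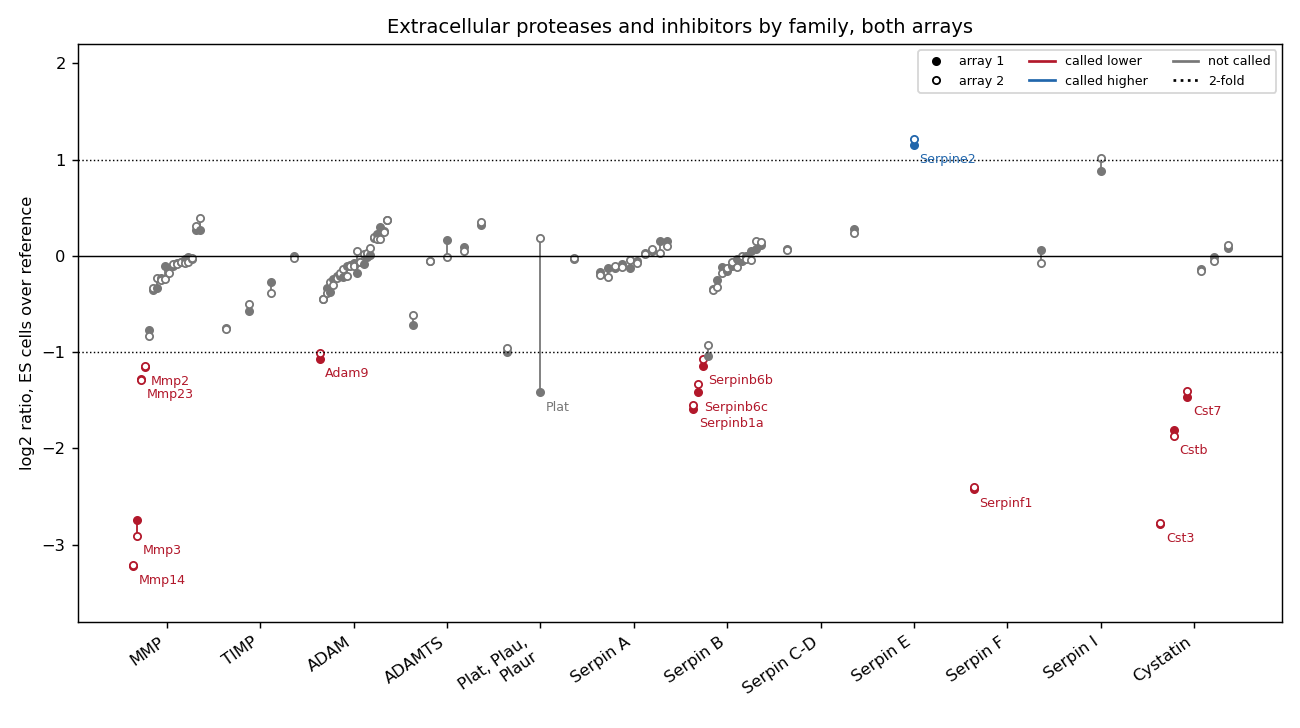
Log2 ratio of ES cells over reference (y axis) for 88 members, grouped by family (x axis), with array 1 filled, array 2 open and a line joining them. The called members lie beyond the dotted 2-fold lines on both arrays, from Mmp14 at -3.22 to Serpine2 at 1.18, and Plat alone has its arrays far apart.

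Matrix metalloproteases held the lowest member. Of 18 measured Mmp genes, 4 (22.2%) were called lower, 0 higher and 14 neither, with a median of -0.17. Of all genes tested 7.47% were called lower and 6.73% higher. Mmp14, the membrane-anchored collagenase that also activates the Mmp2 proenzyme, gave 372 and 422 units in the ES cells against 3669 and 3577 in the reference. Both reference values were several times both ES values, and the mean log2 ratio was -3.22 ± 0.0066 (SD, n = 2), 9.31-fold lower (adjusted p = 4.92e-07). Without background correction it was -2.27 and still called. Mmp2 itself, a gelatinase that cleaves basement membrane collagen, gave 266 and 302 units against 508 and 517, a mean of -1.15 ± 0.011 or 2.22-fold lower (adjusted p = 5.94e-06). Mmp23, a membrane protease without the usual haemopexin domain, gave 194 and 224 units against 342 and 375, at -1.29 ± 0.0066. Its ES signals lay not far above the negative control limit on either array. Mmp2 and Mmp23 were past 2-fold only with background correction, at -0.54 and -0.51 without it.

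Mmp3, the stromelysin that cleaves proteoglycans and activates other proenzymes, was not above the negative controls in the ES cells. Its signals of 109 and 113 lay under the median negative control spot (129 and 138), against 407 and 429 in the reference. The log2 ratios of -2.74 and -2.91 are therefore given as a bound, and Mmp3 was at least 4.03-fold lower in the ES cells (adjusted p of the fit = 1.39e-06); here the ES signal was raised to the negative control limit. Without background correction its mean log2 ratio was -0.90 and it was not called, so the bound rests on the correction. The collagenase gene Mmp13 also lay under the limit in the ES cells (142 and 151 units against 113 and 121 in the reference). It was at least 1.48-fold lower, short of the 2-fold limit. That bound depends on the background correction, without which the mean log2 ratio of Mmp13 was -0.19. Mmp9, the other gelatinase, had log2 ratios of -0.36 and -0.33. The highest members of the family were the membrane-type genes Mmp15 (0.27 and 0.39) and Mmp17 (0.27 and 0.31), neither past 2-fold. The remaining 10 Mmp genes lay between -0.28 and -0.02.

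Promoters of this family are shown because 9 Mmp genes lie next to each other and 8 of them hold a motif that Mmp14 lacks. The 250 bases before the annotated start are from the RefSeq promoter table (build GRCm38.p6), 5′ to 3′ on the gene's strand. Capitals mark TGANTCA, the core that AP-1 dimers of Fos and Jun proteins recognise, TATAAA, the TATA box, and CCGCCC, the GC box read by Sp and Klf proteins, each on either strand (so GGGCGG for the last). Mmp14 lies at chr14:54431348-54431597 (plus strand), Mmp3 at chr9:7445572-7445821 (plus) and Mmp13 at chr9:7272264-7272513 (plus).
Mmp14: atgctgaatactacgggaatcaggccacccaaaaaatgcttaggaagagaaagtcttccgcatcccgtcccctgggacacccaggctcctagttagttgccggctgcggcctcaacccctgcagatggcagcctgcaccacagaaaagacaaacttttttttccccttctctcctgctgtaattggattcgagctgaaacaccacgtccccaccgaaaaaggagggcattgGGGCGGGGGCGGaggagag
Mmp3: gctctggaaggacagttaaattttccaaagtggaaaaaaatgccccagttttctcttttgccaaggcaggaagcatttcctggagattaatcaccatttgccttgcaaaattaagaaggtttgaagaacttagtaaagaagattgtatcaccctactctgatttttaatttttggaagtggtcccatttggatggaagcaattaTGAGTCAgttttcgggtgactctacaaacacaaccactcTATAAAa
Mmp13: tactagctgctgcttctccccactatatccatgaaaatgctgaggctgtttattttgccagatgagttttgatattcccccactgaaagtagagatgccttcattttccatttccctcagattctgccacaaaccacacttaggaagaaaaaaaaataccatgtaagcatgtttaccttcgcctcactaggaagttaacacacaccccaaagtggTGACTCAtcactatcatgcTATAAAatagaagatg

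In these windows Mmp3 and Mmp13 each held TGANTCA followed by TATAAA close to the start, and Mmp14 held adjoining GC boxes and neither of the other motifs. Of the 89 members 61 had a promoter window. In the run of neighbouring genes Mmp13, Mmp12, Mmp1b, Mmp3, Mmp1a, Mmp10, Mmp8, Mmp20 and Mmp7, TGANTCA was present in 8 of 9 windows, TATAAA in 7 and CCGCCC in 0. Over all 27025 genes in the table the shares were 7.82%, 14.3% and 35.4%, and over the 52 members outside this run 23.1%, 13.5% and 34.6%. Of these 9 genes 1, Mmp3, was called lower. The other 8 had mean log2 ratios from -0.80 to -0.02, and 5 of the 9 were above the negative controls in both channels on both arrays. Among the 8 members called lower that had a window, TGANTCA and TATAAA occurred in 1 each (Mmp3) and CCGCCC in 4 (Mmp14, Cst3, Serpinb6b and Serpinb6c). A match here is a string of letters in a window, not a bound site.

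The 4 TIMP genes, which encode the secreted inhibitors of these enzymes, were not called. Timp2, which takes part in the activation of the Mmp2 proenzyme by Mmp14 and is also an inhibitor, gave 240 and 262 units in ES cells and 309 and 307 in the reference. Its log2 ratios of -0.75 and -0.76 were below 0 on both arrays but short of 2-fold (adjusted p = 2.54e-05). Timp1 had -0.57 and -0.50, and the matrix-bound Timp3 -0.27 and -0.39. Timp4 had 0.00 and -0.02, at 345 and 348 units against 283 and 252. The order from lowest to highest was thus Timp2, Timp1, Timp3 and Timp4, and no neighbours in it had overlapping values over the arrays. Each ratio apart from that of Timp4 passed the adjusted p without the fold limit, and 115 of the 162 negative control spots also passed that p. Mmp14 and Mmp2 stood further below the pool than any TIMP.

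ADAM genes lay close to the pool. Of 21 measured, 1 (4.76%) was called lower, 0 higher and 20 neither, at a median of -0.09. Of all genes tested 7.47% were called lower and 6.73% higher, so the share called lower was near that of all genes. Adam9, a sheddase of membrane growth factors, was the called gene, with 245 and 271 units against 417 and 397 and log2 ratios of -1.07 and -1.01 (mean -1.04 ± 0.045, SD, n = 2; adjusted p = 1.04e-05). It lay just inside the fold limit, and with the deposited processed signals it was just short of 2-fold and not called, nor was it without background correction (-0.45). The other major sheddases were not called: Adam10, which cleaves Notch receptors and cadherins, had -0.21 and -0.18, and Adam17, which releases tumour necrosis factor and Egf receptor ligands, -0.33 and -0.39. A dimmer Adam17 probe gave -0.03 and 0.11, with signals under the negative control limit in both channels on both arrays. Adam15 had -0.45 on both arrays, and Adam8, of leukocytes, had -0.10 and -0.11 with signals of 1197 and 1561 against 1436 and 1613. The 11 ADAM genes known from testis or epididymis included Adam1a, as well as Adam3 and Adam18 of the sperm surface. They lay between -0.32 and 0.37, with 0 called and 6 above the negative controls in both channels on both arrays. The 2 Adam25 probes had opposite signs (-0.16 and 0.20).

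None of the 5 ADAMTS genes was called. Adamts4, an aggrecanase, was lowest at -0.72 and -0.62, with 301 and 360 units against 423 and 436. Adamts8 was highest at 0.32 and 0.35. Adamts3, a procollagen processing enzyme, had -0.05 on both arrays, and Adamts18 0.09 and 0.05. Adamts19 was above the negative controls in neither channel.

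Of the plasminogen activators and their receptor 0 of 3 were called. Plaur, the receptor that holds urokinase at the cell surface, gave 418 and 474 units in ES cells and 832 and 814 in the reference, with log2 ratios that differed by 0.04. The mean of -0.98 ± 0.028 (SD, n = 2) lay just outside the fold limit (adjusted p = 1.1e-05), and centred on the array median, without loess, it was -1.18 and called. Urokinase itself, Plau, had -0.03 and -0.02 as log2 ratios, at 270 and 334 units against 197 and 236 (adjusted p = 0.596).

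Plat, tissue-type plasminogen activator, gave different ratios on the arrays, -1.42 on array 1 and 0.18 on array 2. The ES signals of 157 and 184 units lay just above the limit, while the reference signals were 262 and 63.6. The same reference RNA was thus 2.96 times as bright on array 1 after normalisation of the channels (log2 change -1.57 from array 1 to array 2), beside a change of 0.03 in the ES channel. Of 21028 probes Plat had the largest absolute difference between arrays, 1.60, against a next largest of 1.00 and a median of 0.06. The spot was even: its mean and median reference pixels were 642 and 643 on array 1 and 443 and 442 on array 2, and the local background was 380 and 379. At 7 neighbouring gene spots the reference ratio of array 2 to array 1 ran from 0.995 to 1.68, against 0.243 at Plat. The mean of -0.62 ± 1.1 did not pass the test (adjusted p = 0.175), and no level of Plat relative to the pool can be given from it. All other members differed between arrays by 0.22 or less.

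**Figure D2:**
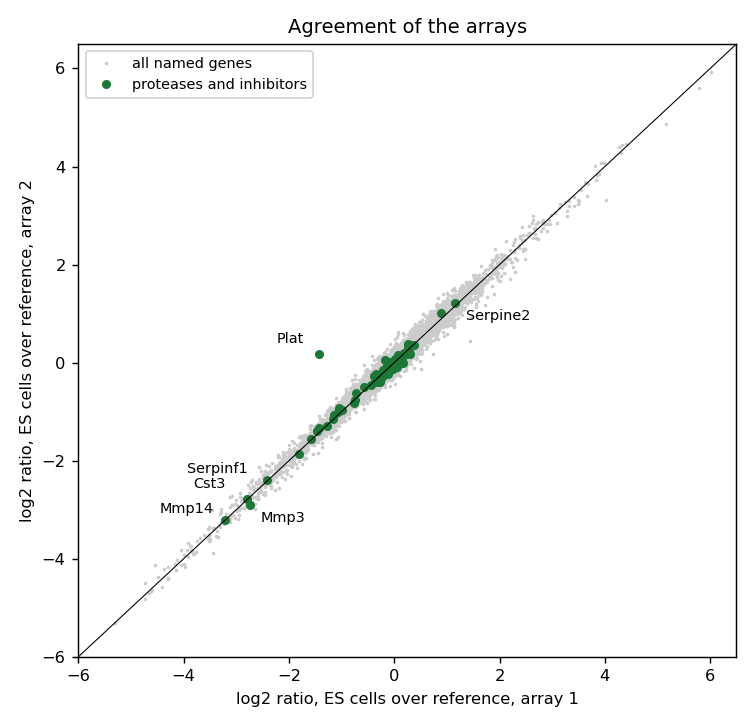
Log2 ratio of ES cells over reference on array 1 (x axis) against array 2 (y axis), with 88 members as large points, all 10137 named genes as small points and the line of equality. Members follow the line apart from Plat, at -1.42 and 0.18.

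Serpins were the largest family, with 32 measured genes, of which 5 were called lower, 1 higher and 26 neither (median -0.08). The shares were 15.6% lower and 3.12% higher, beside 7.47% and 6.73% of all genes tested. Serpine2, or protease nexin, which inhibits thrombin and urokinase and binds to the cell surface, gave 309 and 329 units against 74.6 and 68.5. Its log2 ratios were 1.15 and 1.21 (mean 1.18 ± 0.041, 2.26-fold higher; adjusted p = 6.6e-06), and it was the one member called higher. Its reference signals were near the limit, and without background correction its ratio was 0.37, so that call rests on the correction.

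Serpinf1, a secreted serpin that does not inhibit proteases and is known for blocking vessel growth, gave 200 and 215 units against 906 and 853. Its log2 ratios of -2.42 and -2.40 made it 5.31-fold lower (adjusted p = 8.52e-07), although its ES signals were not far above the limit, and without background correction it was -1.19 and still called. Its neighbour in the genome Serpinf2, the plasmin inhibitor of blood, had 0.06 and -0.08. Serpini1, neuroserpin, an inhibitor of tissue-type plasminogen activator in neurons, had 0.88 and 1.02. Its reference signals of 33.1 and 40.1 were not above the negative controls, so the ES cells exceeded the pool at least 1.65-fold, short of the fold limit. That bound holds with background correction, and without it the log2 ratio was 0.23.

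Clade B serpins, most of which act inside cells, had 3 of 15 members (20%) called lower and 0 higher, beside 7.47% and 6.73% of all genes tested. Serpinb1a, an inhibitor of neutrophil elastase, gave 322 and 371 units against 931 and 933 (mean log2 ratio -1.57 ± 0.026; adjusted p = 2.47e-06), and lost its call without background correction at -0.88. Serpinb6c gave 3728 and 4520 units against 10610 and 10070, a mean of -1.37 ± 0.064, and kept its call without background correction at -1.24. Serpinb6b stood at -1.14 and -1.07, with the ES cells above the negative controls on 1 array only, so its ratio is uncertain (-0.36 and not called without background correction). Serpinb1b lay just outside the fold limit, at -1.04 and -0.93, and was called once ratios were centred without loess (-1.14). Serpinb9, the inhibitor of granzyme B, had -0.35 and -0.36. These genes share a run of 9 neighbouring members, of which Serpinb1a, Serpinb6b and Serpinb6c were called. A second run of 6 clade B genes, from Serpinb5 to Serpinb8, had 0 called and 3 above the negative controls in both channels on both arrays.

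Clade A serpins, mostly plasma proteins of the liver, lay close to the pool. None of the 10 was called, and their mean log2 ratios ran from -0.19 (Serpina6, the corticosteroid carrier) to 0.13 (Serpina1d). Serpina1b and Serpina1e, which encode forms of antitrypsin, gave 1606 and 1873 against 1973 and 1924 units and 1209 and 1372 against 1480 and 1527 units. The third antitrypsin probe, Serpina1d, was above the negative controls in neither channel on either array. The probes of Serpina1b and Serpina1e were the most alike of 4095 pairs of member probes, with 39 of 60 bases identical and a shared run of 16, so their signals may not be fully separate. Serpinc1, antithrombin, had 0.07 and 0.06, and Serpind1, heparin cofactor, 0.28 and 0.24. Of the 89 members 49 lie in 10 runs of neighbours (at most 5 other coding genes between members). Among these 49, 7 were called lower and 0 higher, and among the 40 outside them 6 lower and 1 higher. Over all 89 members 14.6% were called lower and 1.12% higher, and over all genes tested 7.47% and 6.73%.

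Of the 6 cystatins 3 were called lower, 0 higher and 3 neither, beside 7.47% lower and 6.73% higher of all genes tested. Their median was -0.79, or -0.63 with the bound of Cst7. Cst3, the secreted cystatin C, gave 1760 and 2191 units in the ES cells against 12961 and 13391 in the reference. Its log2 ratios of -2.79 and -2.78 made it 6.88-fold lower (adjusted p = 6.01e-07), and it moved little with the correction (-2.50 without it). Cstb, the cytosolic stefin B, gave 1452 and 1697 against 5593 and 5738, at -1.84 ± 0.044 or 3.59-fold lower (adjusted p = 1.82e-06). Cst7, the cystatin of leukocytes, was not above the negative controls in the ES cells (135 and 147 units against 199 and 197) and was at least 2.17-fold lower there (adjusted p of the fit = 3.8e-06). That bound holds with background correction, and without it the ratio was -0.40 and not called. The other 3, Cst9, Cst10 and Cst6, lay at -0.15, -0.03 and 0.10. Cst9, Cst3 and Cst10 are neighbours in the genome, and of these Cst3 was the called gene.

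The windows before Cst3 and Serpine2 are shown as the lowest inhibitor and the one member called higher, with the same marks as above; Cst3 lies at chr2:148875513-148875762 and Serpine2 at chr1:79858666-79858915, both on the minus strand of GRCm38.p6.
Cst3: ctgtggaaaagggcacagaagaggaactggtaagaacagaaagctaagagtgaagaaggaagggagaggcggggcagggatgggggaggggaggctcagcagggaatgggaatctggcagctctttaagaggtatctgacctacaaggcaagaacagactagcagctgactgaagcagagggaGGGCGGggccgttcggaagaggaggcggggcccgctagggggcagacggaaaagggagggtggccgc
Serpine2: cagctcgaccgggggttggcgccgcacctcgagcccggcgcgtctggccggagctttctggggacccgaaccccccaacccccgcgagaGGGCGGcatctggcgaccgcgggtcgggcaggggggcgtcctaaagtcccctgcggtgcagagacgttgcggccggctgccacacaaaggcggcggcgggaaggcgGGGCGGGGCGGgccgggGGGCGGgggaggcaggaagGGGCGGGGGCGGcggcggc

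Both windows held GC boxes, 1 in Cst3 and 6 in Serpine2, and neither TGANTCA nor TATAAA. Genes on opposite sides of the pool thus shared this motif, which 35.4% of all genes hold.

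**Figure D3:**
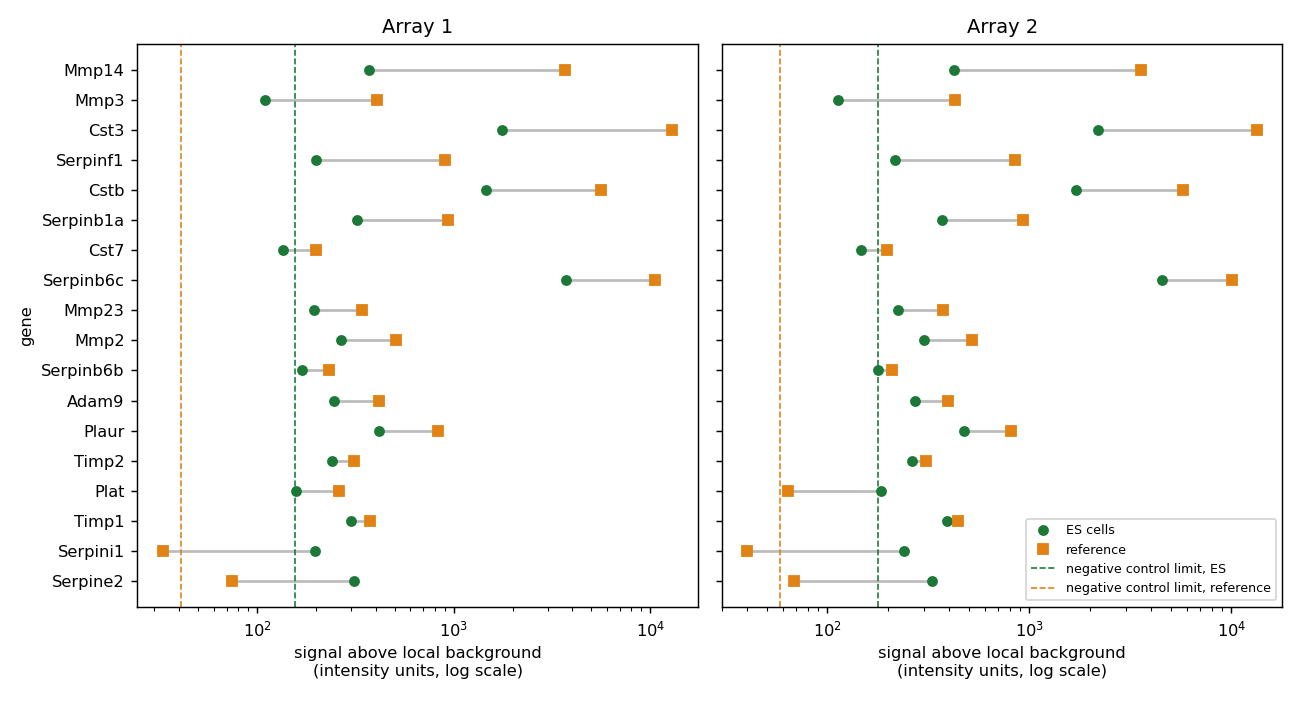
Signal above local background on a log axis (x) for 13 called members and for Plaur, Timp2, Plat, Timp1 and Serpini1 (y), on array 1 (left) and array 2 (right), with ES cells as circles, the reference as squares and dashed lines at the negative control limits. The ES signals of Mmp3 and Cst7 lie left of the ES limit on both arrays, and the reference square of Plat moves from 262 to 63.6.

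Partners of these families outside the name rule were read from 4 lists. Of 59 measured genes, 16 were called lower and 4 higher (27.1% and 6.78%), beside 7.47% and 6.73% of all genes tested. The share called higher was thus near that of all genes. Their median was -0.10, against -0.01 over all genes. Without background correction 11 were called lower and 2 higher, beside 340 lower and 340 higher of all 10137 genes. The lists were chosen with earlier results of these data known. In the list of coagulation, membrane serine proteases and Kunitz inhibitors, 8 of 23 were lower and 2 higher. Its proteases and Kunitz inhibitors lay on both sides. The protease genes Htra1 and Klk1 were called lower at -1.53 and higher at 1.39. St14, Hpn and Spint2 were not called at 0.87, 0.71 and 0.90, nor was Spint1 at -0.10. Anxa2, a docking protein for plasminogen and tissue-type plasminogen activator, stood at -3.56 ± 0.086, and Lrp1, the receptor that clears protease and serpin complexes, at -2.95 ± 0.015. Tfpi, the inhibitor of the tissue factor pathway, was higher at 2.78 ± 0.19, and Vldlr, another receptor for such complexes, lower at -2.18 ± 0.10. S100a10, the partner of Anxa2, and F2r, a thrombin receptor, were lower too, at -2.05 and -1.99, while Plg, plasminogen itself, stood at 0.10. F2rl1 was not called at 0.65. Among activators and other metalloproteases 2 of 15 were lower and 1 higher: Furin, which cleaves the propeptides of Mmp14 and many ADAMs, at -1.93 ± 0.046, Rhbdf1, a partner of Adam17, at -1.52 ± 0.11, and the broad protease trap A2m at 2.10 ± 0.059. Reck, a membrane inhibitor of Mmp14, Mmp2 and Mmp9, was not called at -0.07.

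Of 11 measured substrates shed by ADAMs, 2 were lower and 1 higher, beside 7.47% and 6.73% of all genes tested. Cdh1, E-cadherin, stood at 3.06 ± 0.011. The Egf receptor ligands Areg (-2.06 ± 0.19) and Ereg (at least 3.41-fold lower, not above the negative controls in the ES cells) were on the other side. Notch1 was not called at 0.87. Among cysteine proteases and cystatin relatives, a list that also holds the inhibitor genes Kng1 and Stfa3, 4 of 10 were lower and 0 higher. The 4 are cathepsins, the class of enzyme that cystatins inhibit. Ctsl stood at -2.33 ± 0.12, Ctsz at -2.20 ± 0.034 and Ctsb at -1.45 ± 0.035, and Ctss was at least 22.7-fold lower. The bounds of Ereg and Ctss were taken with background correction only. Ctsc, Ctsh and Ctsk were not called, at 0.56, 0.01 and -0.09. Cst3, Cstb and the 4 called cathepsins were thus lower in the ES cells than in the pool, and the other measured cathepsins were not called.

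**Figure D4:**
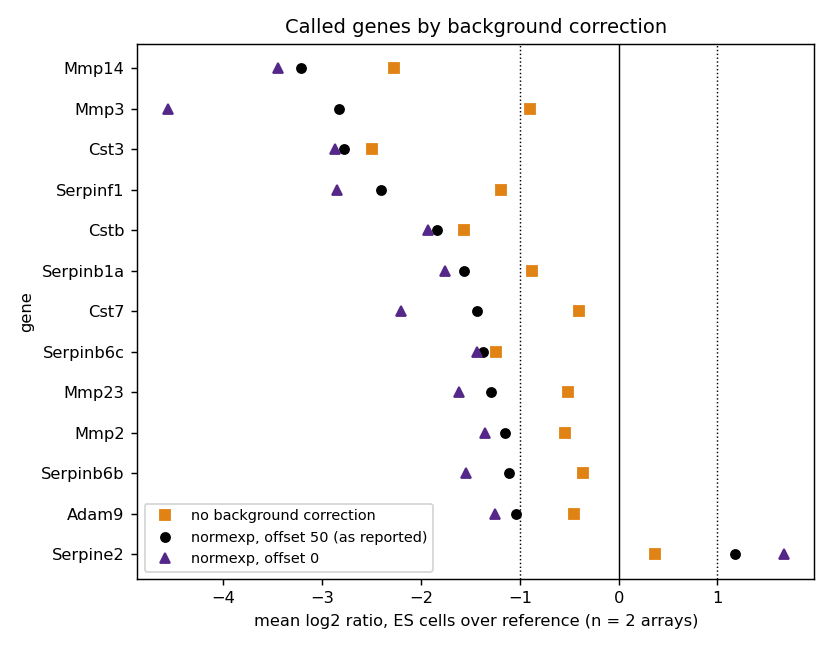
Mean log2 ratio of ES cells over reference (x axis, n = 2 arrays) of 13 called members (y axis) with no background correction (squares), as reported (circles) and with a normexp offset of 0 (triangles), with dotted lines at 2-fold. Bright probes such as Cst3 (-2.50, -2.78 and -2.87) move little, and dim ones such as Mmp3 (-0.90, -2.83 and -4.56) move most.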

How the data were processed

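RNA of 2 siKlf4 ES cell samples (Cy3) and a common reference (Cy5) was hybridised to 2 arrays of 22132 spots (21052 gene probes, 162 negative control spots). The deposited scanner files hold intensity values made by the authors with Agilent Feature Extraction A.7.5.1, per the file headers: scanned signals, processed signals that were dye-normalized by LOWESS on background-subtracted values, and the log10 ratio of the latter. The deposited value table holds log10 values (medians 2.918 and 2.921) with no stated origin. By calculation they equal the mean log10 red processed signal minus the log10 ratio, within 2e-04 for 99.62% and 99.61% of probes.

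Mean signals were corrected here with limma 3.58.1 in R 4.3.3 (normexp on the local background median, offset 50), then loess within arrays with control spots at weight 0. The well-above-background flag of the software was not used, since 162 of 162 negative controls carried it in the ES channel of each array, and 144 and 148 in the reference. Outlier spots removed 24 probes and left 21028, which were tested against 0 with lmFit and eBayes (degrees of freedom: 1 residual, 4.238 prior) and Benjamini-Hochberg adjustment over all probes. The brightest probe stood for a gene. Symbols came from RefSeq accessions (GRCm38.p6 table, names and neighbours only): 10422 probes had 1 symbol, 0 several and 10630 none. For bounds, the dim channel was raised to the negative control limit before correction, with the loess shift kept. The spread of channels between arrays was read after Aquantile. The number of arrays limits the precision. Calling was tested on simulated log2 ratios with independent noise. These held no background or dye effects, so that test cannot judge calls that depend on the background correction.

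The members, the lists, the fold limit and the negative control limit were chosen with earlier results of these data known. Named were the called members (1 is not reported here), Plat, Plau, Plaur, the Timp genes, up to 4 others per family with the largest ratio above the negative controls in 1 channel, and up to 4 called genes per partner list. Other genes (Adam10, Adam8, Mmp10 and its neighbours, clade A, C, D and F serpins, Serpinb5, Serpinb8) were chosen after their values were seen. So were Adamts19, Adam25, S100a10, F2r, F2rl1, Plg, Klk1, Htra1, St14, Hpn, Spint1 and Spint2. The same holds for Reck, Notch1, Ctsc, Ctsh and Ctsk. Alternatives were the background, normalisation, signal source, probe choice, filters, fold limit, test and leaving out an array.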

Additional observations from a re-analysis of the deposited data

How the results depend on the processing

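No paired analysis was possible because the samples form 1 group and each ratio is already taken within an array. The 14 called members kept their call with background from the negative control spots, with a normexp offset of 0, with median centring, with outlier spots kept and with the mean of the probes of a gene. Without background correction 6 kept it: the members gave 6 lower and 0 higher calls and a median of -0.03, the partner genes 2 higher calls, all named genes 340 lower and 340 higher, and all probes 467 lower and 510 higher, against 1092 and 1068 as reported. With an offset of 0 the members had 3 higher calls and a median of -0.15; the 6 added calls included Adam26a and Serpina1d, above the negative controls in neither channel. Higher calls were 2 with median centring and 2 with the deposited processed signals or the value table, Serpini1 being added each time, and the latter 2 settings lost Adam9. The limma treat test against 2-fold lost Adam9 and Serpinb6b. The filter on probes above the negative controls left Mmp3, Cst7 and Serpinb6b untested. With no limit on size the members had 42 lower and 13 higher calls, the partner genes 28 and 21, all named genes 3466 and 3528, and all probes 6612 and 6654. Leaving out an array left no test; the median of members was then -0.11 either way, and Plat stood at 0.18 without array 1 and -1.42 without array 2. Calls of dim probes depend on the background correction, and the cause of the other shifts was not tested.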
